A study of Mus musculus with 29 samples.

Results

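The libraries of the first postnatal days were compared in 2 groups, P0.5 and P1 against P1.5 and P2.5. They were chosen by labelled age, with earlier results of these data known. They are 8 of the 29 libraries of a study of alveolar septa in mice of 15 ages. Each library holds the RNA of 1 animal, cut by laser capture from the alveolar areas of the lung of a wild-type C57BL/6 pup, and large vessels and bronchi were avoided. The P0.5-P1 group holds P0.5e, P0.5f, P1d and P1e, and the P1.5-P2.5 group holds P1.5e, P1.5d, P2.5h and P2.5i, where the number is the age in days and the letter is the pup. Each group has 2 pups labelled female and 2 labelled male. Set beside them are 2 libraries of E18.5, before birth, and 4 of P4 and P5. The comparison asks which genes differ between the first day after birth and the days that follow.

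At birth the lung turns from a liquid-filled organ into one that breathes air. Epithelial sodium channels draw the liquid out, type 2 cells release surfactant, the thin type 1 cells and the capillaries are stretched, and oxygen rises. In the mouse these days belong to the saccular stage, in which wide air sacs with thick walls are present and new septa have yet to divide them.

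Values are FPKM, fragment counts scaled to transcript length and to the mapped fragments of the library. Differences are on the scale of log2(FPKM + 1), always P1.5-P2.5 minus P0.5-P1, and understate the change of genes with low values. Where values of single libraries are given, P0.5e, P0.5f, P1d and P1e come first and P1.5e, P1.5d, P2.5h and P2.5i follow. A gene was called at an adjusted p under 0.05 in limma, by the Benjamini-Hochberg method over 12972 genes. In bulk samples such as these, fewer cells of a type and less RNA per cell cannot be told apart. The summed FPKM of a library ranged from 318176 to 457706, and 12330 to 13059 genes reached an FPKM of 1.

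Markers of the labelled tissue were present in all 8 libraries. The summed FPKM of 5 type 2 cell markers ran from 8355 to 21534, that of 4 type 1 cell markers from 601 to 1151 and that of 4 endothelial markers from 491 to 808. Markers of airway and heart varied between libraries. The sum of 3 club cell markers was 987 in P1.5e and 613 in P1.5d and at least 2198 in the other 6, and the sum of 4 heart muscle markers was 384 in P0.5e and at most 128 in the other 7. The sum of 3 cartilage markers was at most 1.06. Of 16 summed marker levels, that of fibroblasts was 577 ± 79.2 FPKM (SD, n = 4) in P0.5-P1 and 448 ± 46.3 FPKM (SD, n = 4) in P1.5-P2.5 without overlap (two-sided exact permutation test, p = 0.0286, the smallest that 4 against 4 allows, and 0.457 adjusted over the 16). The other 15 had an adjusted p of 0.873 or more in that exact test. Body weight was 1.40 ± 0.141 g (SD, n = 4) and then 1.73 ± 0.189 g (SD, n = 4), with a two-sided exact permutation p = 0.0857.

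Of the 8 libraries, P1.5d and P0.5f stood apart. P1.5d had the lowest mean correlation with the other 7 over the genes tested (Pearson's r, mean 0.832, beside 0.864 to 0.909, as a description), and it listed 63 of 8623 commonly expressed protein-coding genes at 0, against 2 to 20 in the others. P0.5f correlated at a mean r of 0.891 with the 4 libraries of P4 and P5 and at 0.863 with the other 3 of its own group. Pairs within P0.5-P1 had a median r of 0.877, pairs within P1.5-P2.5 one of 0.876, and the 16 pairs between the groups one of 0.891. Xist and 4 genes of the Y chromosome went against the labelled sex in 4 of the 8 libraries (P0.5e, P0.5f, P1.5d and P2.5h), and labelled sex entered only an alternative fit. By these genes each group still holds as many female as male pups. In both pups of P0.5 they show the sex opposite to the label. Which animal and age these 4 libraries hold is therefore in doubt and was not tested, P0.5f among them, and all libraries are named as labelled.

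No gene was called between P0.5-P1 and P1.5-P2.5. Of 12972 genes tested, 0 were called higher in P1.5-P2.5 (0%) and 0 lower (0%), and the smallest adjusted p in limma was 0.91. At an unadjusted p under 0.05 there were 619 genes (4.77%), 255 higher and 364 lower. In 191 genes (1.47%) the 4 libraries of P1.5-P2.5 all lay above the 4 of P0.5-P1, and in 192 (1.48%) all lay below. Of 33 alternative settings, 30 gave 0 calls and the other 3 gave 1 to 3.

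The intervals show which differences the 8 libraries leave possible. The median standard error of a difference was 0.31, from 0.19 at the 10th to 0.53 at the 90th percentile of genes. The 95% interval stayed under 1 in size at both ends for 7550 genes (58.2%), and the estimate exceeded 1 in size for 345 genes (2.66%). On this scale 1 is a 2-fold difference of FPKM + 1, which is a larger fold of FPKM where values are low. The median size of a difference was 0.22, beside 0.45 for P0.5-P1 against E18.5 and 0.28 for P4-P5 against P1.5-P2.5. These comparisons share libraries, and the sizes were not tested against each other. E18.5 holds 2 libraries and each other group 4, and a mean of fewer libraries varies more, which by itself enlarges the sizes against E18.5.

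**Figure D1:**
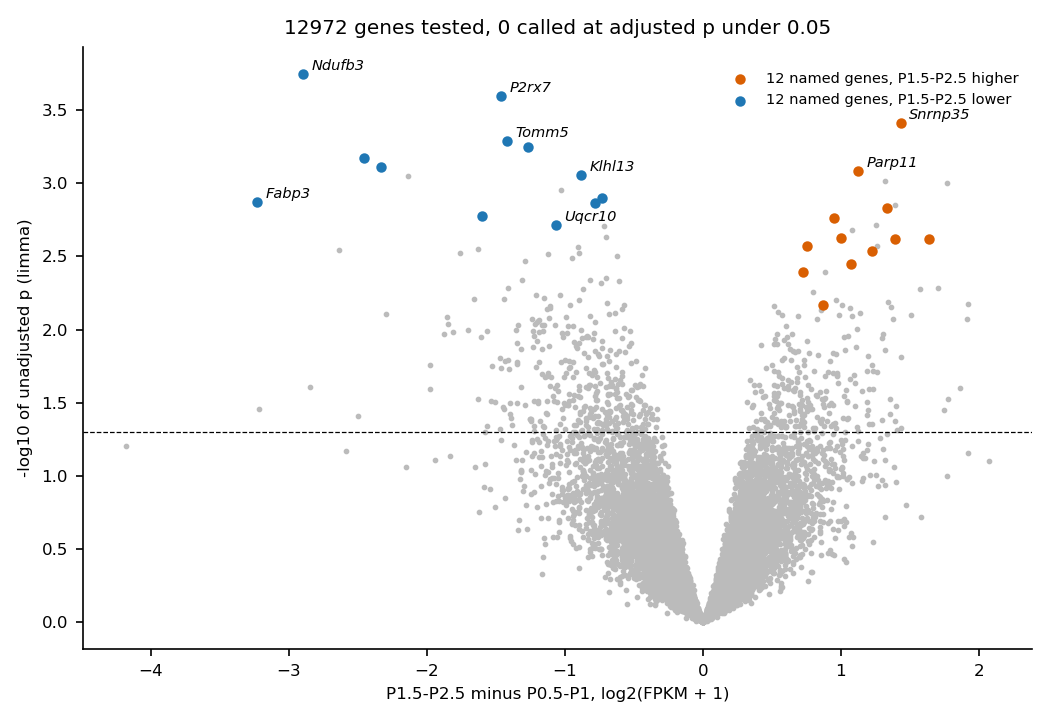
Differences of 12972 genes (points) between P1.5-P2.5 and P0.5-P1 on the log2(FPKM + 1) scale, against −log10 of the unadjusted p in limma, with a dashed line at a p of 0.05. The 12 genes named in each direction are coloured, and 0 genes were called after adjustment.

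The 12 genes with the smallest p in each direction, among those with no overlap between the groups, were taken by rule, and none was called. Among the higher ones, Snrnp35, a protein of the minor spliceosome, was listed at 3.20, 9.15, 3.11 and 4.53 FPKM and then at 11.6, 19.5, 13.2 and 13.1. All 4 later libraries lay above all 4 earlier ones, and both libraries of E18.5 were lower still, at 2.93 and 2.93. The difference was 1.43 (standard error 0.32, unadjusted p = 3.9e-04, adjusted p = 0.91) in limma. Parp11, an ADP-ribosyltransferase, was at 29.7, 19.2, 25.9 and 16.8 FPKM and then 31.1, 91.7, 44.9 and 48.5, with P1.5d the highest, beside 7.09 and 9.02 at E18.5 and 21.1 to 28.8 in P4-P5. The splicing factor Rnps1 was at 3.59 to 9.42 FPKM and then 10.8 to 15.7, and Tle2, a corepressor of the Groucho family, at 4.24 to 6.96 and then 10.9 to 14.9. The homeobox gene Hoxa4 was at 1.17 to 2.80 and then 4.57 to 8.01. The other 7 were Zscan2, Klhl25, Erich2, Wdr83, Fam193a, Cir1 and Polr1b, with differences from 0.73 (Cir1) to 1.64 (Wdr83).

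Among the lower ones, P2rx7, a cation channel opened by extracellular ATP, was listed at 13.03, 17.9, 8.94 and 16.2 FPKM and then at 3.89, 4.90, 5.10 and 3.50. The lowest earlier library stood above the highest later one, and P4-P5 ranged from 7.72 to 21.98. The difference was -1.46 (standard error 0.31, unadjusted p = 2.5e-04, adjusted p = 0.91) in limma. Serping1, which inhibits the first complement enzymes, was at 78.6, 63.3, 89.2 and 91.3 FPKM and then 48.3, 42.2, 41.0 and 53.3, a difference of -0.78. Klhl13, an adaptor of a ubiquitin ligase used in cell division, was at 13.3 to 17.9 and then 5.99 to 12.4. Mr1, which presents vitamin B metabolites to T cells, was at 13.9 to 18.6 and then 8.03 to 11.0. In Mr1 the 4 libraries of P4-P5 stayed at 8.70 to 11.3, while Klhl13 was at 12.3 to 15.2 there. Psph, the last enzyme of serine synthesis, was at 4.85 to 11.7 and then 0.532 to 4.47.

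The remaining 7 lower genes include 6 whose longest transcript has 510 to 883 nucleotides (Ndufb3, Tomm5, Mrps12, Uqcr10, Fabp3 and Gchfr), a length class in which P1d was high and P1.5d low, and Cycs with 3123. Ndufb3, a subunit of complex I, was listed at 7.26, 4.05, 8.72 and 6.55 FPKM and then at 0 in all 4 libraries of P1.5-P2.5. It was at 0 in 1 library of P4 as well, and an exact 0 in such a table can be a failed estimate, so no fold is given. Mrps12, a mitochondrial ribosomal protein, was at 6.67, 8.06, 25.6 and 8.18 and then 0, 0, 2.86 and 5.82, and Tomm5, part of the protein import pore, at 12.2 to 19.6 and then 3.34 to 8.57. Cycs, which encodes cytochrome c, was at 12.6, 7.76, 8.53 and 9.15 and then 2.98, 1.90, 4.01 and 4.97. The whole of its later range lay below the earlier one, with a difference of -1.27. Uqcr10, a subunit of complex III, was at 51.5 to 94.5 and then 19.7 to 48.6. Fabp3, a fatty acid binding protein of heart and muscle, was at 42.9, 10.4, 15.0 and 10.7 and then 0, 0, 5.71 and 0.808. Its highest value was in P0.5e, the library with the highest heart muscle markers, whose part in the result was not tested. Gchfr, a regulator of tetrahydrobiopterin synthesis, was at 4.13, 9.70, 9.95 and 4.94 and then 0, 0, 0 and 2.91.

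One pup, P0.5f, stood apart from the other 7 in genes of proliferation. The proliferation marker Mki67 was listed at 32.2, 239.8, 47.7 and 18.1 FPKM and then at 40.8, 68.5, 71.2 and 62.9. P0.5f was the high library and the other 7 lay at 18.1 to 71.2, beside 162 and 183 at E18.5 and 216 to 347 in P4-P5. The difference between the groups was 0.21 (95% interval -0.91 to 1.34). Top2a, which untangles DNA, was at 7.36, 58.7, 14.8 and 7.47 FPKM and then 6.49, 8.58, 16.1 and 18.6, again with P0.5f the high library, beside 66.7 and 52.9 at E18.5 and 63.4 to 83.0 in P4-P5. The median FPKM of 27 mitosis genes was 1.82, 14.3, 4.12 and 1.97 in P0.5-P1 and 1.86, 3.44, 5.26 and 5.52 in P1.5-P2.5, beside 13.7 and 12.6 at E18.5 and 16.7 to 21.3 in P4-P5. Of the 8 libraries, P0.5f alone came near the flanking ages.

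Of the 27 mitosis genes tested, 0 were called, 0 had an unadjusted p under 0.05 and 0 separated the groups. Their median difference was -0.06, with 11 higher and 16 lower, beside 0.00 over all genes tested. Without P0.5f the median was 0.49, so the direction turned. The members with the smallest p were the kinetochore gene Ndc80 (-0.73, 95% interval -1.72 to 0.27), the spindle gene Nusap1 (-0.74, -1.78 to 0.29), the cyclin Ccnb2 (0.59, -0.31 to 1.48) and the checkpoint kinase Ttk (-0.66, -1.74 to 0.42). Of these, Ccnb2 went against the other 3. Of 28 DNA replication genes, 0 were called and 2 were lower at an unadjusted p under 0.05. These were Rfc3, part of the clamp loader, at 7.84, 16.0, 12.2 and 6.38 FPKM and then 3.13, 7.03, 4.72 and 5.62, and Mcm2, part of the replicative helicase, at 5.54, 23.2, 14.9 and 6.73 and then 7.07, 5.28, 3.28 and 7.36. Both were highest in P0.5f, and the list's median of -0.10 was 0.28 without that library.

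Promoters of 4 mitosis genes with their highest value of the 8 libraries in P0.5f are shown, 3 that hold both motifs searched (Mki67, Top2a and Ccnb2) and 1 that holds neither (Nusap1). Each runs from 250 bases before to 50 after the start of the gene in RefSeq on GRCm38.p6, 5′ to 3′ on the gene's strand. Capitals mark TTTGAA, the core letters of the cell cycle genes homology region, and CCAAT, those of the box bound by NF-Y, each searched on both strands. A match of one may share letters with a match of the other.
Mki67 (chr7:135716330-135716629, minus strand): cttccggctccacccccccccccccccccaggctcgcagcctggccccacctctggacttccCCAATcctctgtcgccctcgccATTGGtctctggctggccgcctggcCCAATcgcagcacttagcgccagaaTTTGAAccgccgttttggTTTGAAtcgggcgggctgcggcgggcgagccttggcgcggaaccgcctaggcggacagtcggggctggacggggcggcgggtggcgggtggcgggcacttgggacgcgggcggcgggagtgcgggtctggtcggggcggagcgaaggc
Top2a (chr11:99024140-99024439, minus strand): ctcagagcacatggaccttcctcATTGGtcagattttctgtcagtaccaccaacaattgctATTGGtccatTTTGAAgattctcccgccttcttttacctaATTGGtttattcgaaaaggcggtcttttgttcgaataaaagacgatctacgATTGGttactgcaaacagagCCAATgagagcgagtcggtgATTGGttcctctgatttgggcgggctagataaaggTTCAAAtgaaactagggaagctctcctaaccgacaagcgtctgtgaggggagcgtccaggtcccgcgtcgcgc
Ccnb2 (chr9:70421505-70421804, minus strand): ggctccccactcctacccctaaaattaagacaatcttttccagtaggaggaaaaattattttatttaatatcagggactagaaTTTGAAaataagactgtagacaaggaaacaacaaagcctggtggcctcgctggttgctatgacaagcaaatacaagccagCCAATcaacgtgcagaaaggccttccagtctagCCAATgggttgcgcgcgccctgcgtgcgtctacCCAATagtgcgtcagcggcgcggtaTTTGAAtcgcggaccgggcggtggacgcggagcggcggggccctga
Nusap1 (chr2:119618048-119618347, plus strand): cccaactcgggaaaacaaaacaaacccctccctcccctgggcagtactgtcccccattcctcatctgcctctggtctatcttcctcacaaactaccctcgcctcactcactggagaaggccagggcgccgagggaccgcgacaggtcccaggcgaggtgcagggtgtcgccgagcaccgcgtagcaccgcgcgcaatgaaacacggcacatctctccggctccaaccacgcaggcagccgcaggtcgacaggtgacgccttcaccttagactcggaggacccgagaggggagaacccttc
A RefSeq promoter was matched for 23 of the 27 mitosis genes. TTTGAA stood in 17 of them (73.9%) and in 18.1% of all 27025 promoters of this length, CCAAT in 18 (78.3%) and in 37.9%, and both in 15 (65.2%) and in 7.12%. A match describes letters and shows no binding.

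**Figure D2:**
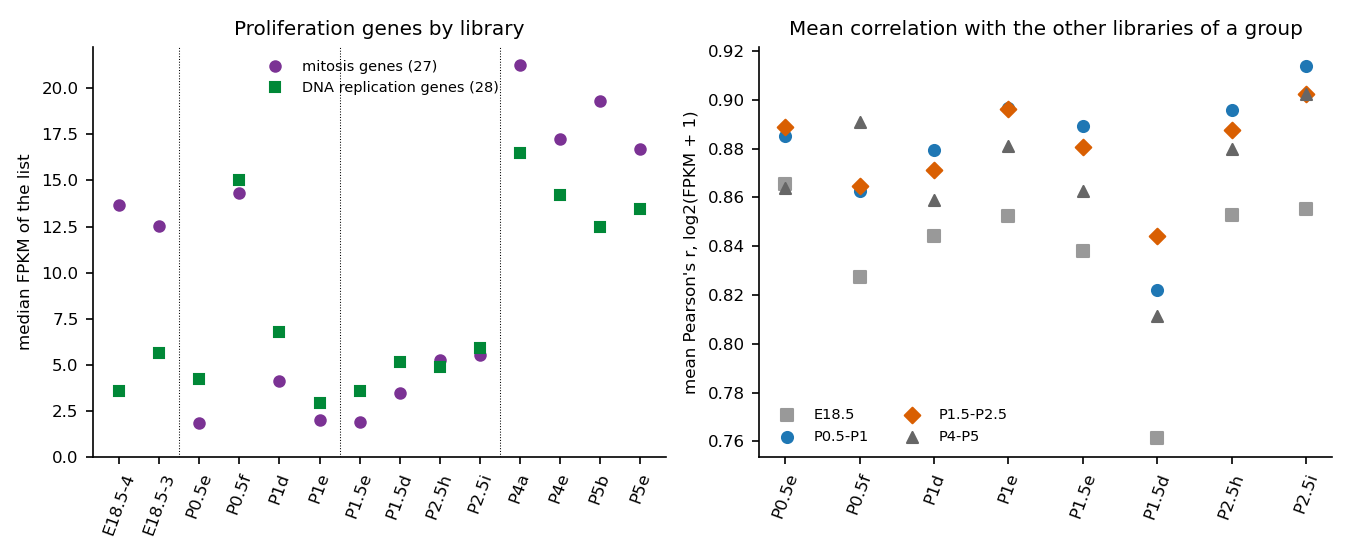
Left, median FPKM of 27 mitosis and 28 DNA replication genes in each of 14 libraries, with dotted lines between the 4 groups. Right, mean Pearson's r of each of the 8 compared libraries with the other libraries of each group. P0.5f has the highest mitosis median of the 8 (14.3) and a mean r of 0.891 with P4-P5.

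Immediate early genes, which cells switch on within minutes of a stimulus, were near one level in both groups. Of 20 tested, 0 were called and 0 had an unadjusted p under 0.05, with a median difference of 0.15, and 0.03 without P0.5f. The list's median FPKM was 15.3 to 21.6 and then 15.5 to 19.7, beside 6.02 and 6.82 at E18.5. Fos, a subunit of the factor AP-1, was listed at 22.1, 7.36, 12.7 and 11.0 FPKM and then at 14.8, 19.0, 9.96 and 18.2. The groups overlapped and all 8 libraries stood above both of E18.5 (1.48 and 3.72), with a difference of 0.27 (95% interval -0.67 to 1.20). Klf2, which blood flow induces in endothelium, was at 22.4, 17.8, 18.5 and 34.1 and then 23.1, 36.3, 30.9 and 42.5 (0.51, -0.13 to 1.15). Nr4a2, an orphan nuclear receptor, was the single member of the 20 to separate the groups, beside 1.48% of all genes that lay wholly below. It was at 9.87, 5.04, 4.82 and 4.86 and then 1.87, 2.92, 4.70 and 3.58 (-0.73, -1.52 to 0.06).

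Genes induced by low oxygen, many of them enzymes of glycolysis, were low in both groups beside E18.5. Of 29 tested, 0 were called and 0 had an unadjusted p under 0.05. Their median difference was -0.16, and -0.05 without P1.5d. The list's median FPKM was 21.9 and 25.2 at E18.5, 7.90 to 12.3 in P0.5-P1 and 7.87 to 11.4 in P1.5-P2.5. The glycolytic enzyme gene Gapdh was listed at 52.1, 56.3, 83.0 and 56.6 FPKM and then at 70.1, 31.3, 43.8 and 47.6, beside 101 and 106 at E18.5. Its groups overlapped, with a difference of -0.39 (95% interval -0.84 to 0.06). Eno1, enolase, was at 16.2, 12.5, 32.8 and 15.0 and then 19.3, 0.000188, 7.80 and 8.70. The value in P1.5d, like that in P5e (0.000155), is so low that it can be a failed estimate, so no difference is given. Of the 10 members that went against the list, the collagen hydroxylase gene P4ha2 was at 0.46 and the hexokinase gene Hk2 at 0.35.

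The epithelial lists held no called gene. Of 18 genes for surfactant proteins and lamellar bodies, 0 were called and 0 had an unadjusted p under 0.05. Their median difference was -0.12, and 0.08 with quantile normalization and 0.04 without P1.5d. Sftpc, surfactant protein C of type 2 cells, was listed at 14979, 10979, 20435 and 11474 FPKM and then at 20451, 7685, 15026 and 10045. The groups overlapped over nearly their whole range, and the 95% interval of the difference was wide, -1.95 to 1.60. Sftpb, which spreads surfactant lipids, was at 218 to 284 and then 241 to 355, a difference of 0.20 (-0.17 to 0.56). Of 22 type 1 cell genes, 0 were called and 0 had an unadjusted p under 0.05, and 21 had a 95% interval under 1 in size at both ends. Their median was -0.12, and 0.03 with quantile normalization. Ager, a receptor of the type 1 cell surface, was at 454, 426, 863 and 753 and then 721, 540.0, 532 and 463, above both libraries of E18.5 (238 and 283) in all 8. The guidance signal Sema3e (-0.37, -0.76 to 0.03) and the junction gene Cldn18 (-0.40, -0.83 to 0.03) had the smallest p of that list.

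Of 18 genes for lung liquid and ion transport, 0 were called and 1 was higher at an unadjusted p under 0.05. This was the chloride transporter gene Slc26a9, listed at 21.8, 18.9, 15.9 and 11.8 FPKM and then at 28.8, 29.5, 21.2 and 25.8, with a slight overlap between P0.5e and P2.5h. Its difference was 0.62 (standard error 0.25, unadjusted p = 0.025, adjusted p = 0.91) in limma. Scnn1a, a subunit of the sodium channel that clears lung liquid, was at 56.2, 32.7, 84.7 and 90.8 and then 84.2, 106, 60.5 and 58.8. All 8 values stood above E18.5 (24.4 and 29.04), and the groups overlapped (difference 0.29, 95% interval -0.37 to 0.94).

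The vascular lists held no called gene. Of 25 endothelial genes, 0 were called, and 21 of the 25 intervals stayed under 1 in size at both ends. The median difference was -0.08, and 0.03 with quantile normalization. The single member at an unadjusted p under 0.05 was Fibin, a secreted protein, at 27.3, 52.2, 58.4 and 48.3 FPKM and then 47.2, 10.9, 29.2 and 30.1, lowest in P1.5d. Car4, a carbonic anhydrase of capillary endothelium, was at 36.9, 40.04, 80.1 and 62.3 and then 55.5, 42.1, 49.0 and 37.1, beside 20.9 and 27.0 at E18.5. Of 30 genes for VEGF, angiopoietin and endothelial signals, 0 were called and 0 had an unadjusted p under 0.05. Angpt1, a ligand that steadies vessels, was the single member of the 30 to separate the groups, beside 1.48% of all genes that lay wholly below. It was at 24.5, 35.9, 33.4 and 25.6 and then 23.2, 24.1, 19.4 and 21.4 (difference -0.41, 95% interval -0.93 to 0.12). Its counterpart Angpt2 overlapped at 4.47 to 9.80 and then 3.02 to 6.50, and the growth factor Vegfa at 380.2 to 468 and then 410.1 to 530.4.

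Of 16 genes linked to stretch and the factor Yap, 0 were called, and 2 had all later libraries above all earlier ones, beside 1.47% of all genes. Piezo1, a channel opened by membrane tension, was listed at 23.5, 33.6, 29.4 and 33.5 FPKM and then at 38.8, 42.6, 35.0 and 39.7. The 4 later libraries were the highest of the 14, since E18.5 stood at 10.8 and 12.8 and P4-P5 at 28.4 to 32.9. The difference was 0.38 (standard error 0.15, unadjusted p = 0.027, adjusted p = 0.91) in limma. Lats2, a kinase that restrains Yap, was at 36.4, 42.8, 37.4 and 45.9 and then 50.4, 59.7, 54.7 and 51.5 (difference 0.41, 95% interval -0.01 to 0.83), beside 43.9 to 55.7 in P4-P5. Of the list, 9 members were higher and 7 lower, with a median of 0.02.

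Fibroblast genes were lower in P1.5-P2.5 in 19 of 21 cases, with 0 called. Their median difference was -0.32, 3 were lower at an unadjusted p under 0.05, and 4 separated the groups, all below, beside 1.48% of all genes. Tcf21, a transcription factor of lung fibroblasts, was listed at 379, 333, 308 and 305 FPKM and then at 280.4, 218, 218 and 261. Its groups did not overlap, and E18.5 stood above both at 388 and 448. The difference was -0.44 (standard error 0.17, unadjusted p = 0.020, adjusted p = 0.91) in limma. The collagen gene Col3a1 was at 288, 272, 244 and 210.4 and then 189, 152, 176 and 188, beside 242 to 500.0 in P4-P5. Gpc3, a proteoglycan of the cell surface, was at 136, 156, 145 and 140.1 and then 114, 94.1, 96.0 and 119.6. G0s2, an inhibitor of fat breakdown, was the fourth to separate the groups (-0.44), while the microfibril gene Mfap5 overlapped at 24.5, 9.41, 7.23 and 8.99 and then 5.78, 5.49, 7.88 and 5.51. The protease inhibitor gene Pi16 (0.52) and the cytoskeletal linker Macf1 (0.17) went against the list. Its median stayed between -0.42 and -0.20 over the alternatives run.

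Of 28 genes of elastic fibres and matrix, 26 were lower and 2 higher, 0 were called and 0 had an unadjusted p under 0.05, while 3 (Fbn1, Fbn2 and Col5a2) separated the groups, all below, beside 1.48% of all genes. The median difference was -0.23, between -0.30 and -0.13 over the alternatives run. Fbn1, fibrillin of the microfibrils, was at 114, 124, 117 and 116 FPKM and then 106, 85.6, 101 and 93.5 (difference -0.29, 95% interval -0.64 to 0.07). Eln, which encodes elastin, was at 357, 252, 354 and 411 and then 364, 223, 234 and 240.0, high in P1.5e among the later 4. Lox, which links elastin and collagen, was at 55.5, 26.4, 64.8 and 45.1 and then 52.9, 11.2, 27.9 and 30.2, far below E18.5 (257 and 197) in all 8. The 2 members against the list were Ltbp2 (0.13) and Mfap2 (0.04). Of 22 IGF axis genes, 0 were called and 2 were lower at an unadjusted p under 0.05, the growth factor gene Igf1, at 29.04, 42.6, 46.7 and 26.2 and then 21.97, 23.2, 28.9 and 27.3, and Igfbp3, whose protein binds it, at 8.57 to 32.2 and then 1.79 to 10.8.

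**Figure D3:**
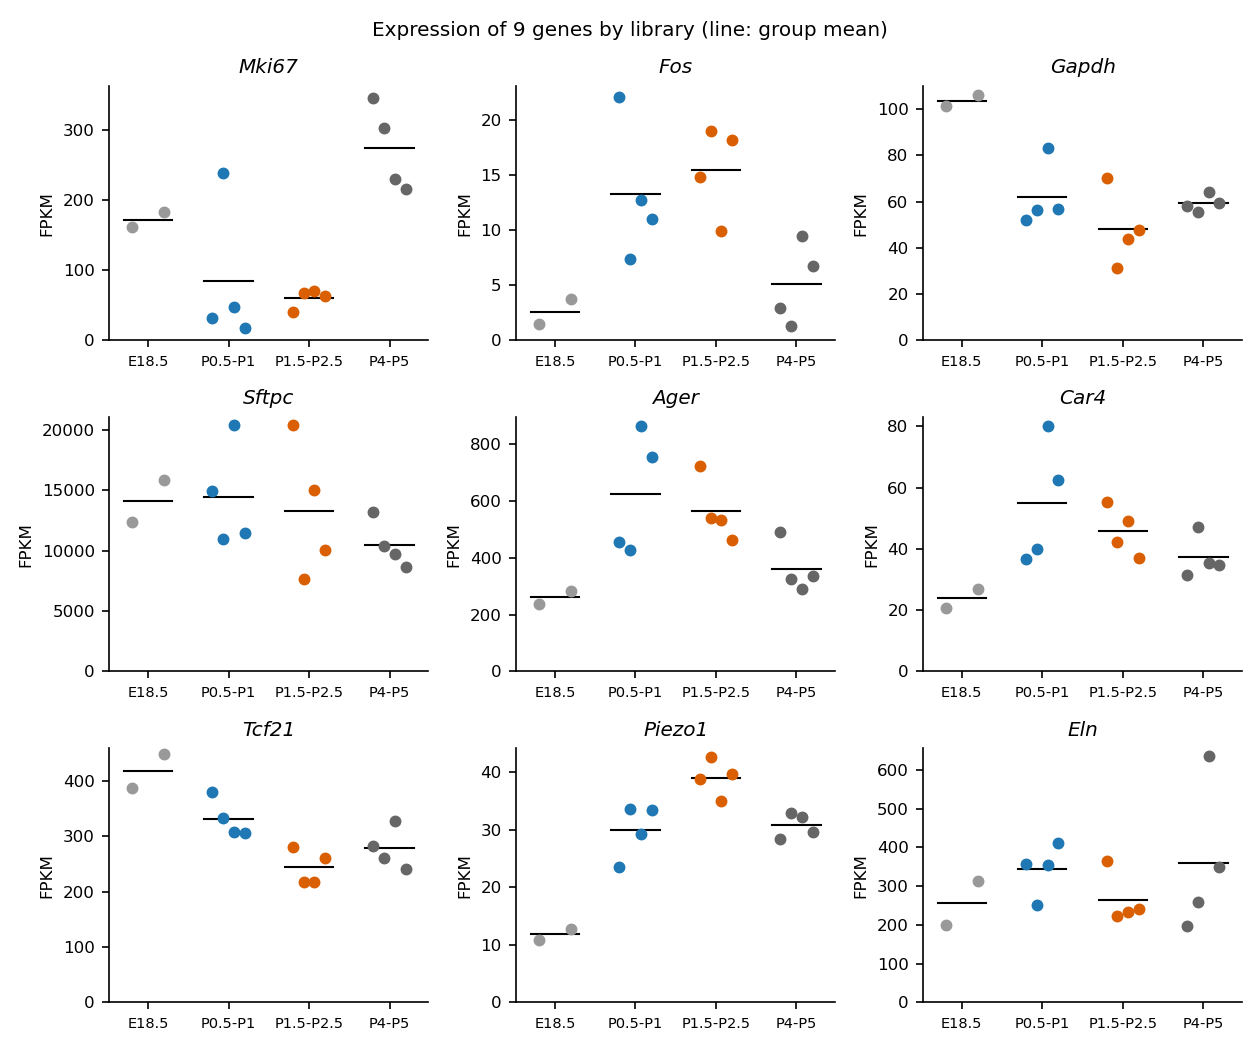
FPKM of 9 genes in 4 groups, with 1 point per animal and a line at the group mean. Mki67 shows 1 library of P0.5-P1 at 239.8, Tcf21 and Piezo1 show no overlap between P0.5-P1 and P1.5-P2.5, and Fos, Gapdh, Sftpc, Ager, Car4 and Eln overlap.

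**Figure D4:**
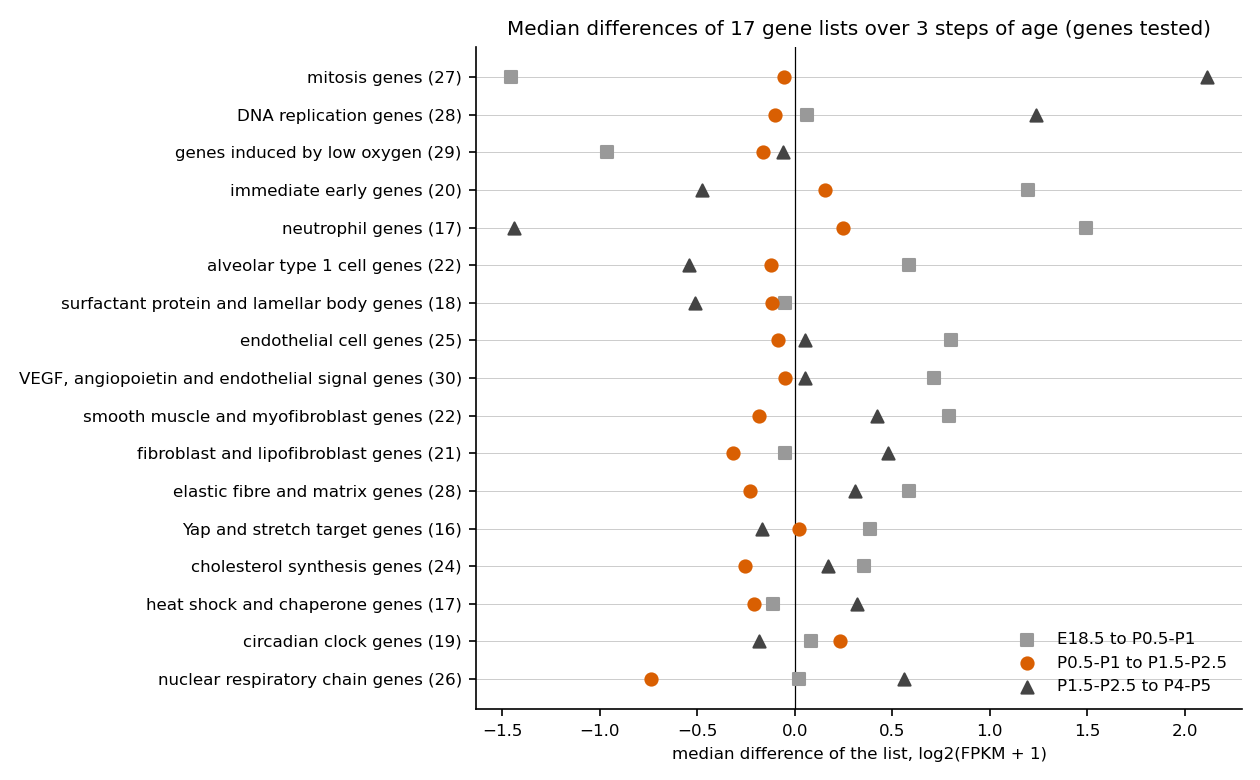
Median difference of the tested members of gene lists on the log2(FPKM + 1) scale for 3 steps of age (squares E18.5 to P0.5-P1, circles P0.5-P1 to P1.5-P2.5, triangles P1.5-P2.5 to P4-P5). The circle of the nuclear respiratory chain genes lies lowest at -0.74, while the mitosis genes reach -1.45 and 2.12 in the flanking steps. The steps share libraries and were not tested against each other.

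Nuclear genes of the respiratory chain, which makes ATP in mitochondria, had the lowest list median. Of 26 tested, 24 were lower and 2 higher, 0 were called, and 13 were lower at an unadjusted p under 0.05, beside 2.81% of all genes. In 5 the groups separated, all below, beside 1.48% of all genes. The median difference was -0.74. Cox7b, a subunit of complex IV, was listed at 37.9, 28.6, 58.0 and 41.1 FPKM and then at 14.3, 5.37, 30.5 and 31.0. Cox6a1, another, was at 11.8, 39.1, 29.4 and 29.7 and then 3.00, 0.735, 13.8 and 24.8. Both were lowest in the 2 pups of P1.5 and overlapped between the groups. Ndufb3 and Uqcr10 are described above, and Cox5a (0.15) and Ndufb9 (0.04) went against the list.

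Transcript length and single libraries moved with this result, and beyond the values given here their part in it was not tested. The median of the longest annotated transcripts of the 26 genes was 764 nucleotides. Over 362 protein-coding genes with transcripts of up to 1000 nucleotides the median difference was -0.37, and over 1563 above 6000 nucleotides it was 0.08. In the short class P1.5d deviated from the gene means by -0.66 and P1d by 0.56. Without both, the short class was at -0.01 and the respiratory list at -0.26. This pair was chosen after the data were seen, as the highest earlier and lowest later library of that class. A smaller negative difference without the pair was thus largely built in, and these values do not test its part. Without P1.5d alone the short class and the list were at -0.12 and -0.43. With each library centred within classes of transcript length the list was at -0.52. The 34 ribosomal protein genes tested, also short, had a median of -0.24, and 0.13 without P1.5d.

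**Figure D5:**
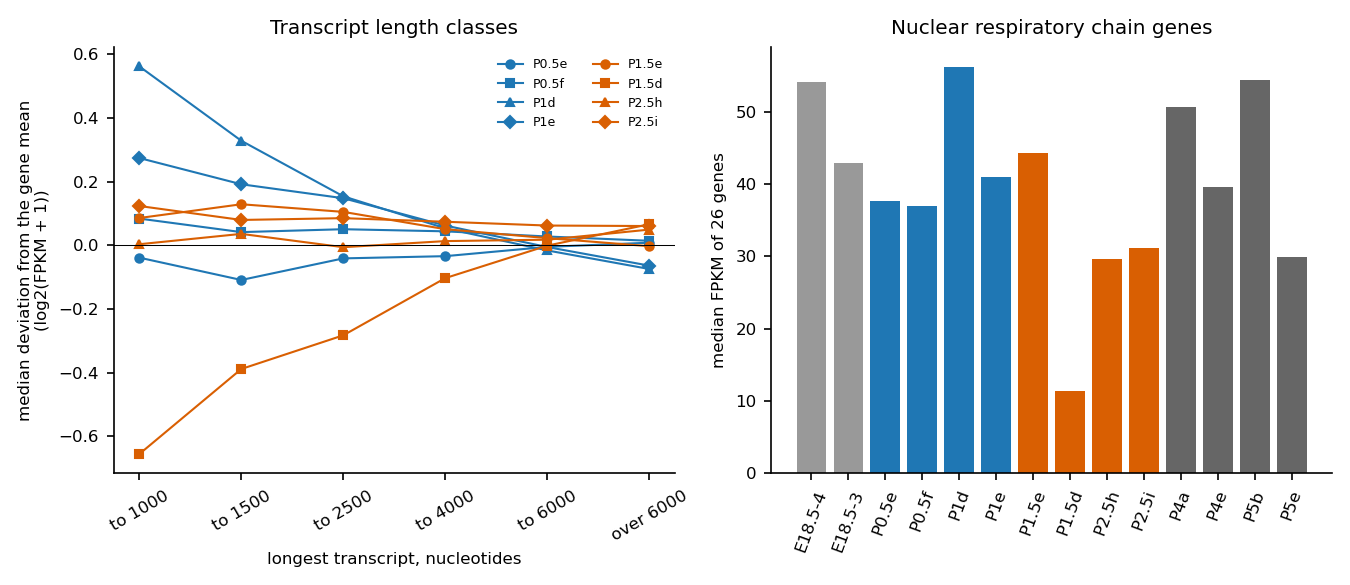
Left, median deviation of each of the 8 libraries from the gene means in 6 classes of transcript length, on the log2(FPKM + 1) scale. The lines part in the shortest class, with P1d at 0.56 and P1.5d at -0.66. Right, median FPKM of 26 nuclear respiratory chain genes in 14 libraries, lowest in P1.5d (11.4).

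Of 24 cholesterol synthesis genes, 20 were lower and 4 higher, 0 were called, and the median was -0.25. The sterol oxidase gene Msmo1, at 32.0, 20.4, 32.0 and 24.8 FPKM and then 19.6, 9.77, 22.01 and 14.4, and the synthase gene Hmgcs1, at 29.004 to 44.9 and then 10.2 to 34.7, were lower at an unadjusted p under 0.05. Angptl4, an inhibitor of lipoprotein lipase and a target of PPAR and glucocorticoid receptors, separated the groups at 30.3, 29.2, 31.1 and 23.9 and then 20.3, 9.31, 22.5 and 18.4. It was low at E18.5 (3.84 and 3.35), and its difference was -0.73 (standard error 0.27, unadjusted p = 0.017, adjusted p = 0.91) in limma. Gyg, the primer of glycogen, was at 53.6 to 70.7 and then 19.9 to 51.5, beside 191 and 136 at E18.5. Its list did not share this direction, since 8 of 14 glycogen and gluconeogenesis genes were higher and 6 lower, with a median of 0.01. Of 17 heat shock and chaperone genes, 14 were lower, 0 were called, and 2 separated the groups, both below, beside 1.48% of all genes. These were the cytoplasmic chaperones Hsp90aa1, at 88.5, 87.5, 87.4 and 103 and then 43.0, 60.2, 74.3 and 72.8, and Hspa8, at 462, 483, 520.1 and 464 and then 388, 184, 426 and 311. The list's median was -0.21, and -0.11 without P0.5f. It was -0.01 without the pups of P1.5 and -0.32 without those of P2.5. Of 20 glucocorticoid response genes, 0 were called and 1, Angptl4, had an unadjusted p under 0.05.

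Immune genes varied from pup to pup. Of 17 neutrophil genes, 0 were called, and the median difference of 0.25 was -0.13 without P0.5f. The granule gene Ngp was listed at 21.0, 3.91, 21.1 and 27.7 FPKM and then at 39.3, 28.0, 33.0 and 21.2, lowest in P0.5f, beside 0.970 and 0 at E18.5. S100a8, a calcium binding protein of the same cells, was at 64.4, 17.4, 79.8 and 28.4 and then 18.7, 15.6, 28.5 and 28.0. The cytokine gene Il1b was at 5.53, 1.84, 0.346 and 0.592 and then 4.05, 8.43, 3.77 and 3.86, highest in P1.5d. Among 23 macrophage genes, 7 were higher and 16 lower, and 0 were called. Their median difference was -0.18, and 0.05 without P1.5d. The 1 member at an unadjusted p under 0.05 went against most of the list. This was Atp6v0d2, a proton pump subunit of macrophages and osteoclasts. It was at 8.01, 7.45, 11.7 and 5.79 and then 13.1, 10.5, 31.2 and 17.4, with a difference of 0.97 (standard error 0.31, unadjusted p = 0.0063, adjusted p = 0.91) in limma. Cpa3, a protease of mast cells and basophils, was at 13.3, 3.47, 7.90 and 6.01 and then 4.46, 0.947, 0.211 and 3.06.

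Circadian clock genes were higher in 17 of 19 cases, with 0 called and 1 at an unadjusted p under 0.05. This was the repressor gene Per3, listed at 19.1, 11.3, 9.20 and 9.67 FPKM and then at 17.1, 32.1, 18.05 and 20.7, with a difference of 0.80 (standard error 0.25, unadjusted p = 0.0056, adjusted p = 0.91) in limma. Its groups overlapped through P0.5e. Per1 was at 32.8, 7.07, 15.9 and 13.7 and then 16.2, 53.4, 22.7 and 18.4, and the repressor Nr1d1 at 14.2, 1.11, 4.21 and 5.62 and then 5.72, 12.9, 4.37 and 9.31. In both, P0.5e and P1.5d were the high libraries and P0.5f the lowest. Arntl, the activator of these genes, was at 6.25 to 8.18 and then 6.23 to 11.6. The median of 0.23 was 0.03 without P0.5f and P1.5d, a pair chosen after the data were seen. P0.5f had the lowest list median of P0.5-P1 (7.90 FPKM) and P1.5d the highest of P1.5-P2.5 (12.9). A smaller difference without this pair was thus largely built in. Without P0.5e, the highest of P0.5-P1 (14.2), the median difference was 0.27. With 1 of the 8 libraries left out it ran from 0.14 to 0.27. The pups of P1 are of a whole-day age and the other 6 of half-day ages, and the labels give no time of day. Without the P1 pups the median was 0.18, and a part of the time of day was not tested.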

How the data were processed

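Total RNA depleted of ribosomal RNA was sequenced from laser-captured alveolar septa, 1 pup per library. The deposited values are FPKM that the authors computed per gene on mm10; the submitters' processing notes name STAR 2.5.1 and Cufflinks 2.2.1. Read depth is not given in the sources used here, so precision rests on the spread between pups.

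The table holds 24486 lines for 22779 gene IDs, of which 1226 stand on more than 1 line, and each such ID was taken from its line of highest mean. Genes that reached 1 FPKM in 4 or more of the 8 libraries were tested on log2(FPKM + 1) with limma 3.58.1 in R 4.3.3, in a fit of 14 libraries in 4 groups with a trended prior, two-sided, with Benjamini-Hochberg adjustment. The study's methods state no test for this comparison. Sums of markers and body weight were compared by exact permutation tests.

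Of 50 gene lists, 1007 genes were matched and 861 tested. The groups compared, the lists and the markers were chosen with earlier results of these data known. The text names, by rule, the 12 genes with the smallest p in each direction among those whose higher group averaged 5 FPKM or more and no overlap, the members of lowest p in a list (4 at most), members against a list, markers and clock genes. Other members, such as Mki67, Top2a, Fos, Scnn1a and Vegfa, were chosen after their values were seen. So were the markers printed, such as Sftpb and S100a8. Promoters are from RefSeq on GRCm38.p6 and transcript lengths from a GENCODE annotation. Alternatives changed the pseudocount, filter, normalization, weights, sex term, libraries, ages and repeated lines.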

Additional observations from a re-analysis of the deposited data

Results flagged for a closer look

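Within groups of 4 libraries, a highest or lowest value was marked by its gap to its neighbour, relative to the range. The limit was Dixon's 95% critical value, and 22 of 291 groups of values examined (7.56%) had a marked value. Of these, 5 were in P1.5d, 4 each in P0.5e and P0.5f, 3 in P1.5e, 2 each in P1d and P2.5h and 1 each in P1e and P2.5i. The limit gives about 1 in 20 for independent, normally distributed values. Some genes examined were chosen after their values were seen, so the share found cannot be set against that. All values are FPKM.

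P0.5f was far above the other 3 libraries of P0.5-P1 in the proliferation genes Mki67 (239.8), Top2a (58.7) and Nusap1 (34.9) and in the serine synthesis gene Psph (11.7). P0.5e was far above them in Fabp3 (42.9), a gene of heart and muscle, in the nuclear receptor gene Nr4a2 (9.87), in the microfibril gene Mfap5 (24.5) and in the median of the interferon induced genes (11.0). P1d was the high library for the mitochondrial ribosomal gene Mrps12 (25.6) and for Gapdh (83.0), and P1e for the chaperone gene Hsp90aa1 (103.0).

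In P1.5-P2.5, P1.5d was far above the other 3 in Zscan2 (9.17), Erich2 (7.03), Polr1b (7.01) and the cytokine gene Il1b (8.43). Its median of the Yap and stretch genes (43.4) was close to that of the next library (41.1) and was marked because the other 3 lay within a narrow range. P1.5e was the high library for the elastin gene Eln (363.9), for the median of the fatty acid use and PPAR target genes (18.8) and for the summed cartilage markers (1.06). P2.5h was the high library for Mfap5 (7.88) and Fabp3 (5.71), and P2.5i for Gchfr (2.91, the other 3 listed at 0). No cause of these values was tested.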

How the results depend on the processing

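Of 30 alternatives planned and 3 chosen after seeing the data, 30 gave 0 called genes. With the 8 compared libraries alone 1 gene was called, Ndufb3 (lower, adjusted p = 0.047 in limma), which is also the 1 gene of the lists called there. It passed the filter on low values through P0.5-P1 alone and is listed at 0 in all 4 libraries of P1.5-P2.5, so a failed estimate cannot be told apart from a low level. Without the pups of P2.5 there were 3 calls, all lower, Cox6a1 (adjusted p = 0.042), Ndufb2 (0.042) and Mrps12 (0.032), of which 1, Cox6a1, is in a list. Without P0.5f and P1.5d together, chosen after seeing the data, there was 1, H4c12, listed at 0 in several libraries (adjusted p = 4.0e-05). The cause was not tested. Leaving out each of the 14 libraries in turn gave 0 calls each time, and 432 (without P1.5d) to 817 (without P0.5f) genes at an unadjusted p under 0.05, beside 619 with all. Over all alternatives this count ran from 331 to 1019. The difference in body weight, 0.325 g, ran from 0.233 to 0.392 g with 1 of the 8 pups left out. Of 784 recomputed values of the 24 named genes, 0 turned direction and 2 passed the threshold. These genes were chosen for no overlap between the groups, so leaving out libraries or ages could not turn their direction. Of 1615 recomputed list medians, 18 moved by more than the spread between libraries. With the filter at an FPKM of 5, the lymphocyte list and that of skeletal muscle, cartilage and nerve had no member left. No paired analysis was possible because the pup letters are given within each age and pair no animals. Read depth is unknown, so low values and exact zeros carry an error that these data do not give.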
